A study of Mus musculus with 2 samples.

Results

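Skin wounds of WT and PU.1 KO mice were compared for the transcripts of 10 small leucine-rich proteoglycans, chosen by gene symbol: Dcn, Lum, Bgn, Fmod, Ogn, Aspn, Prelp, Kera, Ecm2 and Podn. All 10 were among the 24346 gene symbols of both libraries. The samples were full-thickness incisional wounds of the dorsal skin of C57BL/6J neonates, made in 1-day-old pups and harvested 24 h after injury, with 1 mRNA sequencing library for WT and 1 for PU.1 KO littermates. PU.1, encoded by Spi1, is a transcription factor of myeloid and lymphoid development, and pups without it cannot mount a normal leukocyte response to a wound. The deletion is carried by the whole body, and neither the number of pups in a library nor their sex is given in the sources used here. The methods describe incisions, whereas the deposited design text speaks of excisions.

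Small leucine-rich proteoglycans are secreted proteins whose core is a curved stack of leucine-rich repeats. Many bind the surface of collagen fibrils and govern how thick and how evenly spaced the fibrils become, and several also bind TGFβ or signal through receptors of innate immunity. Some carry chains of chondroitin or dermatan sulfate (decorin and biglycan), others keratan sulfate (lumican, fibromodulin and keratocan), and asporin and Prelp are known without such chains. Decorin is among the most abundant products of dermal fibroblasts.

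Levels are given in FPKM, which divides fragments by transcript length and library depth, so that genes can be compared with each other. With 1 library per genotype no test between genotypes was possible, and the spread among animals is unknown. Intervals beside ratios are exact binomial intervals at 95% on estimated read numbers, and they cover counting error only. A gene was counted as higher or lower when the ratio of the libraries was at least 2, with values below 0.1 FPKM raised to 0.1. About 1.39e+07 fragments lay behind the WT values and 1.6e+07 behind those of PU.1 KO. Spi1 itself stood at 35.4 FPKM in WT against 1.45 in PU.1 KO. All 10 macrophage markers were at least 2-fold lower, and their summed level went from 910 to 6.59 FPKM, with Adgre1, C1qa, C1qb, C1qc and Tyrobp listed at 0. Xist had 0 FPKM in WT against 9.48 in PU.1 KO, so that sex and genotype cannot be told apart in these libraries. The fibroblast markers Col3a1 (1040 and 1110 FPKM) and Col1a2 (373 and 406 FPKM) and the keratinocyte markers Krt14 (4660 and 5200 FPKM) and Krt10 (2290 and 2600 FPKM) were abundant in both.

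Podn, Kera and Ecm2, 3 of the 10 genes, were past 2-fold upwards in the PU.1 KO wound, and 0 were past it downwards. Over all listed genes the corresponding shares were 2.32% higher and 4.34% lower. The abundant members Dcn, Bgn, Lum and Aspn were 1.31 to 1.52 times their WT level, Prelp and Ogn differed by less than their counting intervals, and Fmod was lower, at 0.65 of its WT level. The median log2 ratio (PU.1 KO over WT) was 0.43 over the 10 genes, against 0.00 for all listed genes and -0.01 for the 6538 genes that reached 10 FPKM in each library. The counting interval lay above a ratio of 1 for 7 of the 10 genes, below it for 1, and held it for 2. The share of all genes with such intervals was not computed, so these counts have no background. In abundant genes small differences are enough, as for Col3a1 with a ratio of 1.07 (interval 1.06 to 1.08). With a floor or a pseudocount of 1 FPKM in place of the floor of 0.1, Podn was the 1 gene left at 2-fold, because Kera and Ecm2 lie near or below that level. With a pseudocount of 0.1 FPKM, 2 genes were left, without Ecm2.

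**Figure D1:**
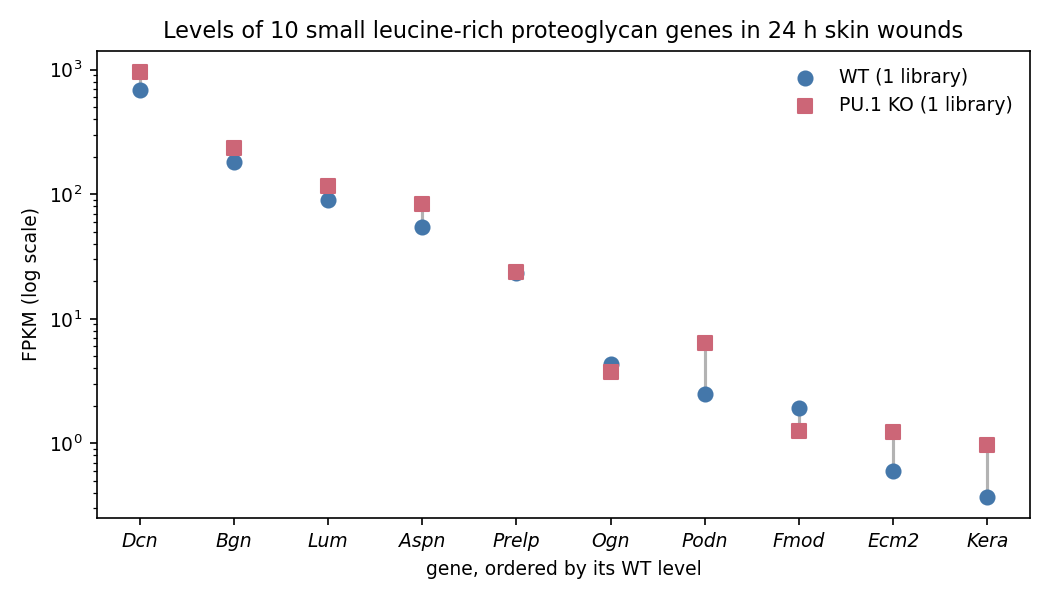
FPKM of each of the 10 genes (log scale) in the WT library (circles) and the PU.1 KO library (squares), ordered by the WT level. Dcn leads at 690 and 959 FPKM and Kera is the lowest at 0.373 and 0.974 FPKM, and the squares lie above the circles for 8 of 10 genes.

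The levels spanned a 1850-fold range in the WT library and a 985-fold range in the PU.1 KO library. In WT the order from the highest was Dcn, Bgn, Lum, Aspn, Prelp, Ogn, Podn, Fmod, Ecm2 and Kera. In that order Podn and Fmod could not be told apart by counting (level ratio 1.30, interval 0.958 to 1.77), nor could Ecm2 and Kera (1.60, interval 0.75 to 3.46). The first 5 places were the same in PU.1 KO. Podn moved ahead of Ogn there, with a level ratio of 1.71 (interval 1.39 to 2.09). Fmod and Ecm2 stood at nearly the same level in PU.1 KO (1.01, interval 0.696 to 1.45), and Ecm2 and Kera again could not be separated (1.27, interval 0.827 to 2.01).

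Together the 10 genes summed to 1046 FPKM in WT against 1431 in PU.1 KO, a ratio of 1.37, or 1.32 without Dcn. Dcn alone made up 65.9% of the sum in WT and 67.0% in PU.1 KO, and Dcn, Bgn, Lum and Aspn together made up 96.8% and 97.4%. The abundant genes thus made up nearly the same part of the pool in both libraries, while its sum differed. The share of Prelp went from 2.24% to 1.67%, and that of Aspn from 5.21% to 5.79%. The 3 genes past 2-fold contributed little, with Podn at 0.24% and 0.45% of the sum.

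**Figure D2:**
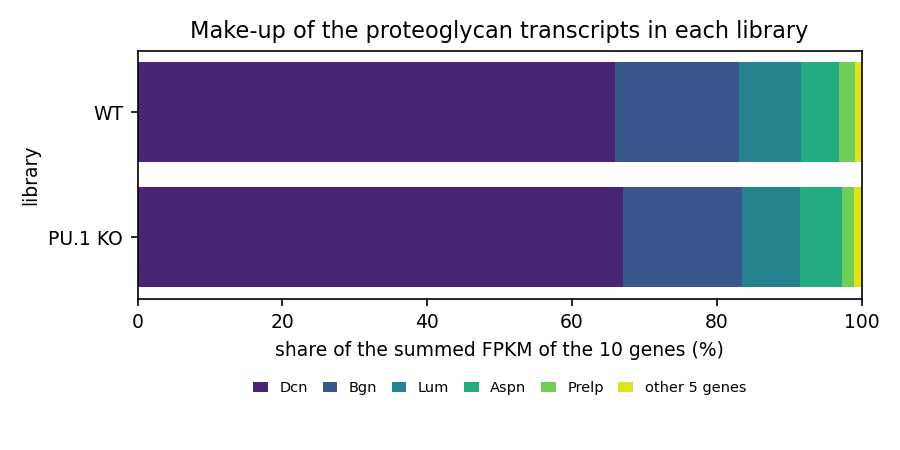
Share of each gene in the summed FPKM of the 10 genes, in percent, for the WT library (upper bar) and the PU.1 KO library (lower bar). Dcn takes 65.9% and 67.0%, Bgn 17.2% and 16.4%, Lum 8.52% and 8.13%, and the 5 named segments keep their order. The yellow segment pools the other 5 genes.

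Decorin, biglycan and asporin form the first class of the family. Dcn lies at 97479500 to 97518163 on chromosome 10 (mm10) and reached 690 FPKM in WT against 959 in PU.1 KO. It ranked as gene 168 of all listed genes in WT and as gene 131 in PU.1 KO. Its ratio of 1.39 had an interval of 1.36 to 1.42, from about 14805 and 23654 reads, the narrowest of the 10. Decorin is bound along collagen fibrils and can sequester TGFβ. Bgn, its closest relative and a ligand of the Toll-like receptors TLR2 and TLR4 when released from the matrix, lies on chromosome X from 73483601 to 73495936. It had 180 FPKM in WT against 235 in PU.1 KO, a ratio of 1.31 (interval 1.26 to 1.35). Dcn stood 3.84 times above Bgn in WT and 4.09 times in PU.1 KO. X-linked genes of at least 10 FPKM in each library had a median log2 ratio of 0.00 (174 genes), and 10.9% of them were at least 25% higher, against 8.63% of 6353 autosomal genes.

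Aspn encodes asporin, a TGFβ-binding relative of decorin named for its aspartate-rich start. On chromosome 13 from 49544443 to 49567565, it had 54.6 FPKM in WT against 82.8 in PU.1 KO. Its ratio of 1.52 (interval 1.43 to 1.62) was the largest among the 5 members of at least 10 FPKM in each library. Ecm2, extracellular matrix protein 2, lies next to it from 49504810 to 49532789 and had 0.595 FPKM in WT against 1.24 in PU.1 KO. Its ratio of 2.08 rests on about 28 and 67 reads, and its interval of 1.32 to 3.36 reaches well below 2. Both genes were thus higher in PU.1 KO, at levels that differ by a wide margin.

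The second class holds the keratan sulfate carriers and Prelp. Lum encodes lumican, which limits the lateral growth of collagen fibrils in skin and cornea. On chromosome 10 from 97565501 to 97572703, it had 89.2 FPKM in WT against 116 in PU.1 KO, a ratio of 1.31 (interval 1.24 to 1.37). Fmod encodes fibromodulin, which binds the same region of collagen as lumican and is best known from tendon. On chromosome 1 from 134037254 to 134048280, it had 1.93 FPKM in WT against 1.25 in PU.1 KO, from about 78 and 58 reads. Its ratio of 0.65 (interval 0.453 to 0.921) was the lowest of the 10, and it was the 1 member at least 1.5-fold lower. The share of all genes lower by that much was not computed. Lum and Fmod thus differed in opposite directions, and the level of Lum over Fmod was 46.2 in WT and 92.8 in PU.1 KO.

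Prelp, a heparin-binding protein of basement membranes and cartilage on chromosome 1 from 133910304 to 133930102, had 23.4 FPKM in WT against 23.9 in PU.1 KO. Its ratio of 1.02 had an interval of 0.939 to 1.10, which held a ratio of 1. Of the stretches of 75 bases in its transcript, 7.94% also occur on the opposite strand of the antisense transcript Gm15851, and the other 9 genes shared none with another gene. Kera encodes keratocan, a keratan sulfate carrier of the cornea. On chromosome 10 from 97606962 to 97613688, it had 0.373 FPKM in WT against 0.974 in PU.1 KO, a ratio of 2.61 with a wide interval of 1.24 to 5.57. Its values correspond to read numbers in a proportion of 1 to 3, at about 10.7 and 32 reads, and it was the least abundant of the 10 in both libraries.

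Ogn encodes osteoglycin, also called mimecan, of the third class, and Podn encodes podocan, of the fifth class and known from the vessel wall and kidney. Ogn, on chromosome 13 from 49608015 to 49624501, had 4.33 FPKM in WT against 3.77 in PU.1 KO. These values stand for equal read numbers, about 142 in each library. Because the PU.1 KO library is deeper, that is a lower level there, a ratio of 0.871. Its interval of 0.685 to 1.11 held a ratio of 1. Podn, on chromosome 4 from 108014793 to 108031954, had 2.51 FPKM in WT against 6.44 in PU.1 KO, from about 103 and 304 reads. Its ratio of 2.57 had an interval of 2.05 to 3.25, the 1 interval among the 10 that lay above 2. In the annotation used here a long form of Podn overlaps Scp2, a lipid transfer protein gene on the same strand, which had 59.3 and 48.6 FPKM. Scp2 was thus lower where Podn was higher, a ratio of 0.82.

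**Figure D3:**
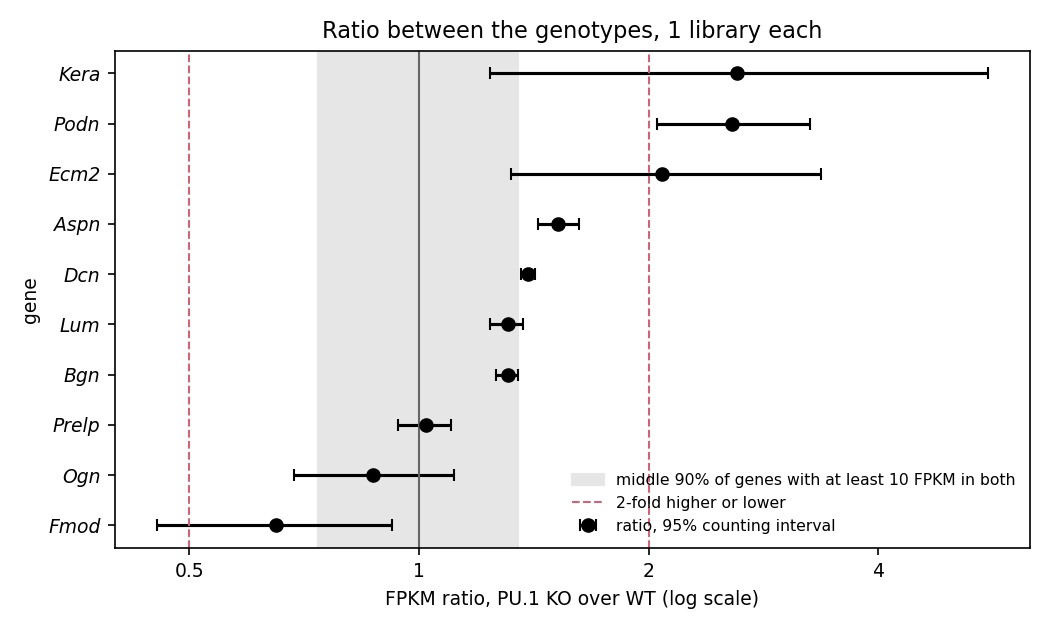
FPKM ratio of PU.1 KO over WT (log scale) for each of the 10 genes, with the 95% counting interval as bars, the middle 90% of genes of at least 10 FPKM in grey and dashed lines at 2-fold either way. Kera, Podn and Ecm2 lie beyond the upper dashed line, and only the bar of Podn stays above it, from 2.05 to 3.25.

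Of the 5 members with a mean between 0.5 and 10 FPKM, 3 were at least 2-fold higher, where 2.93% of the 6991 genes of that range were. Kera had 0.373 FPKM in WT and 0.974 in PU.1 KO, and it entered that range only through its PU.1 KO value. The count of 3 thus leans in part on the library where Kera was high. Kera (about 10.7 and 32 reads) and Ecm2 (about 28 and 67 reads) lie near the lower end of that range. Its share is therefore not one for genes of their own level. Of the 5 members of at least 10 FPKM in each library, 4 (Dcn, Bgn, Lum and Aspn) were at least 25% higher, where 8.69% of the 6538 genes of that level were. The middle 90% of those genes had ratios between 0.737 and 1.35, and Dcn and Aspn lay above that range while Bgn and Lum lay inside it. The range of means and the threshold of 25% were chosen after the values were seen.

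Fibroblasts are a main known source of these transcripts, and in a bulk sample fewer cells of a type and less RNA per cell cannot be told apart. The 10 fibroblast markers, none of them a member, had a median log2 ratio of 0.17, and 9 of 10 were above 0. Thy1 had 114 FPKM in WT against 166 in PU.1 KO, a ratio of 1.46 (interval 1.39 to 1.53), and Pdgfra had 61.3 and 80.0 FPKM, a ratio of 1.30. Mfap5 went the other way, from 64.5 to 34.3 FPKM, a ratio of 0.532. Taken relative to the median of these markers, 1 of the 5 abundant members (Aspn, log2 0.43) was still at least 25% higher, in place of 4, and Dcn stood at 0.30, Bgn at 0.21, Lum at 0.21 and Prelp at -0.15. Podn (1.19) and Kera (1.21) stayed past 2-fold on that scale, and Ecm2 (0.88) did not. The shares of all genes called on that scale were not computed, so these counts have no background.

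Skeletal muscle markers were higher in the PU.1 KO library. All 10 were above 0, 3 of them (Myh3, Myh8 and Ttn) past 2-fold, with a median log2 ratio of 0.71, and their summed level was 9570 FPKM in WT against 16005 in PU.1 KO. The tendon and fascia markers had a median of 0.13, with 5 of 8 above 0 and 2 below. The 1 marker past 2-fold was Scx, the transcription factor of tendon cells, with 5.07 and 13.3 FPKM, a ratio of 2.63 (interval 1.93 to 3.58). Thbs4, the most abundant, had 44.4 and 46.1 FPKM (1.04), and Fibin was lower, at 5.54 and 4.35 FPKM (0.785, interval 0.624 to 0.994). Nerve and Schwann cell markers had a median of 0.45, with all 8 above 0, and adipocyte markers a median of -0.76, with 7 of 8 below 0. The part of these tissues in the values of the members was not tested.

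The members lie in gene clusters. Dcn, Lum, Kera and Epyc stand together on chromosome 10 within 203 kb, and Ecm2, Aspn, Omd and Ogn on chromosome 13 within 120 kb. Prelp, Optc and Fmod lie on chromosome 1 from 133897199 to 134048277, and Bgn and Podn stand apart. On chromosome 10, Dcn, Lum and Kera were all above their WT level, and Epyc was listed at 0 in both libraries. On chromosome 13 the log2 ratios along the cluster were 1.06 for Ecm2, 0.60 for Aspn, 0.15 for Omd and -0.20 for Ogn. Adjacent genes, with gaps of 11.7 to 15.2 kb, had overlapping counting intervals, whereas those of Ecm2 and Aspn lay wholly above that of Ogn. The gene Cenpp, which runs through this cluster on the opposite strand, had 4.54 and 3.88 FPKM, and whether reads were counted by strand is not stated. On chromosome 1 no gene of the family was above WT by more than the 1.02 of Prelp, and Optc had 0.461 and 0.134 FPKM, from about 10.7 and 3.56 reads. The summed level of the cluster was 1.38 times WT on chromosome 10, 1.47 times on chromosome 13 and 0.978 times on chromosome 1. Each sum is mostly that of 1 gene. In WT, Dcn made up 690 of 779 FPKM, Aspn 54.6 of 60.8 and Prelp 23.4 of 25.8, in the same order of chromosomes. The sums thus say little about the other genes of each cluster.

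The 250 bases upstream of the start sites are shown for Podn and Ecm2, which were past 2-fold. The window of Kera, also past 2-fold, is not shown. Aspn and Ogn, of the same cluster as Ecm2, are shown too. Of these, Aspn was above its WT level and Ogn had an interval that held 1. The sequences are those of RefSeq on GRCm38.p6, the assembly of mm10, and run 5′ to 3′ along the gene. They lie at chr4:108031955-108032204 on the minus strand for Podn, and on the plus strand at chr13:49504560-49504809 for Ecm2, chr13:49544193-49544442 for Aspn and chr13:49607765-49608014 for Ogn. Capitals mark matches to TATAAA or CCAAT on either strand.
Podn: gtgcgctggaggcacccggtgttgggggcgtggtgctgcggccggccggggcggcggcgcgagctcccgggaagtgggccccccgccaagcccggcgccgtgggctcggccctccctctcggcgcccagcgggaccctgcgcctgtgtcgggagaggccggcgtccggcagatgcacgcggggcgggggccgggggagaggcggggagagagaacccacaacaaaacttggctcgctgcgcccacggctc
Ecm2: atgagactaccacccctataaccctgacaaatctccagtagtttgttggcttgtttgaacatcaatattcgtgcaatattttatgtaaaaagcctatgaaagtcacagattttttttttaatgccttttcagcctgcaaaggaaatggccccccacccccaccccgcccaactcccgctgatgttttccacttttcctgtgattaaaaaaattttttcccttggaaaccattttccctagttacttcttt
Aspn: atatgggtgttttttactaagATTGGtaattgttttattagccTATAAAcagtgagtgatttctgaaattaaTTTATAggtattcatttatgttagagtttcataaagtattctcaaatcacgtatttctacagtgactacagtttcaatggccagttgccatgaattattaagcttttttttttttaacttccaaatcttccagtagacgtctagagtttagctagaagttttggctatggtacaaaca
Ogn: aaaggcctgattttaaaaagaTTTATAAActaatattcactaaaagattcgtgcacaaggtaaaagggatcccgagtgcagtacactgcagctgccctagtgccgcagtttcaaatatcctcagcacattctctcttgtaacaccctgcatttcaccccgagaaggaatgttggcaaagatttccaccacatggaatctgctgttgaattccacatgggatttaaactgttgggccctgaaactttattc

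The window of Podn is GC-rich, at 78% G and C, while those of Ecm2 (40%), Aspn (30%) and Ogn (42%) are richer in A and T. The windows of Podn and Ecm2 hold no match. The window of Kera has CCAAT on the minus strand starting 163 and 107 bases before the start, and on the plus strand at 74. Aspn has TATAAA on the plus strand starting 207 bases before the start and on the minus strand at 178, and Ogn has overlapping matches on the 2 strands at 229 and 227. The searches covered both strands of 9 windows of 8 of the 10 genes (Podn has 2), and TGANTCA reads the same on both strands. No window was available for Dcn and Lum, so these abundant members were not searched. TATAAA occurred in 2 of the 9 windows and in 12.4% of all 32851 windows of that length, and CCAAT in 3 of the 9 and in 33.8% of all. GAGGAAGT, an exact sequence within sites bound by PU.1, occurred in 0 of the 9 and in 2.44% of all. TGANTCA, bound by AP-1 factors, occurred in 0 of the 9 and in 6.75% of all. Shorter or variant forms of the PU.1 site were not searched, so the count of 0 does not show that such sites are absent. With shares so low among all windows, 9 windows are too few to show a lack of either sequence.

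Of the 8 further leucine-rich proteoglycan genes, 0 were at least 2-fold higher and 1 (Optc) was lower, with a median log2 ratio of -0.10. Tsku, which encodes the BMP-binding protein tsukushi, was the highest of them, at 13 FPKM in WT against 9.93 in PU.1 KO, a ratio of 0.761 (interval 0.665 to 0.872). Omd, for osteomodulin, had 1.36 and 1.51 FPKM, a ratio of 1.11 (0.72 to 1.76). Epyc and Chad were listed at 0 in both libraries. The summed level of these 8 genes was 0.779 of WT, beside 1.37 for the 10 members.

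The collagens that the proteoglycans bind had a median log2 ratio of 0.11, with 0 of 10 genes past 2-fold. Col1a1 had 350 FPKM in WT against 385 in PU.1 KO, a ratio of 1.10 (interval 1.08 to 1.12). Dcn was 1.97 times the level of Col1a1 in WT and 2.49 times in PU.1 KO, and 0.662 and 0.864 times the level of Col3a1. Among the collagens, Col12a1, a fibril-associated collagen that decorin can bind, came closest to the abundant members, at 30.1 and 40.2 FPKM, a ratio of 1.34, and its relative Col14a1 went from 11.7 to 8.82 FPKM. Decorin transcripts were thus higher relative to those of the main fibrillar collagens in the PU.1 KO wound.

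The enzymes that build the sulfated chains had medians close to that of all genes. Of 22 genes for the linker and for chondroitin and dermatan sulfate, 0 were at least 2-fold higher and 1 (Chst13, 0.25 and 0.0871 FPKM, about 5.01 and 2 reads) was lower, with a median log2 ratio of -0.05. Dse, an epimerase that turns chondroitin into dermatan sulfate, had 21.8 and 17.8 FPKM, a ratio of 0.818 (interval 0.755 to 0.886). B3gat3, a linker enzyme, had 24.3 and 21.5 FPKM. Of 8 genes of keratan sulfate synthesis, 1 was at least 2-fold higher and 2 were lower, with a median of 0.03. Chst1, a keratan sulfate sulfotransferase, had 4.69 FPKM in WT against 1.67 in PU.1 KO, a ratio of 0.357 (interval 0.264 to 0.478). B3gnt7 (0.302 and 0.0789 FPKM) and Chst5 (0.125 and 0.327 FPKM) rested on about 10.3 reads or fewer. B4galt1 (55.9 and 61.6 FPKM) and B3gnt2 (27.0 and 27.1 FPKM) were the most abundant.

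Among 10 proteases that mature or cleave these proteins, 0 were past 2-fold upwards and Gzmb (0.239 and 0.0521 FPKM) was lower. Mmp2, which cleaves decorin and was among the highest of the list, had 101 FPKM in WT against 170 in PU.1 KO, a ratio of 1.68 (interval 1.61 to 1.74). Mmp14 had 123 and 158 FPKM, a ratio of 1.28. Bmp1, which removes the propeptide of biglycan, had 57.0 and 47.0 FPKM, a ratio of 0.825 (interval 0.785 to 0.867). The list as a whole had a median log2 ratio of 0.09.

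Of the 15 listed growth factors and receptors that are reported to bind these proteins, 0 were at least 2-fold higher and 3 were lower. The lower ones were receptors of soluble biglycan and decorin in innate immunity. Tlr2 had 13.2 FPKM in WT against 5.26 in PU.1 KO, Tlr4 had 8.41 and 3.12 FPKM, and Cd14 had 101 and 5.97 FPKM. All 3 are known from macrophages, whose 10 markers were all lower here, and the part of those cells in these values was not tested. The ligand Bgn was at 1.31 times WT. Tgfb1, a partner of decorin, biglycan, fibromodulin and asporin, had 35.4 and 27.1 FPKM (ratio 0.766), and Tgfb3 had 9.68 and 13.1 FPKM (1.36). Cd44 (98.3 and 79.6 FPKM) was among the most abundant of the list, whose median log2 ratio was -0.10.

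**Figure D4:**
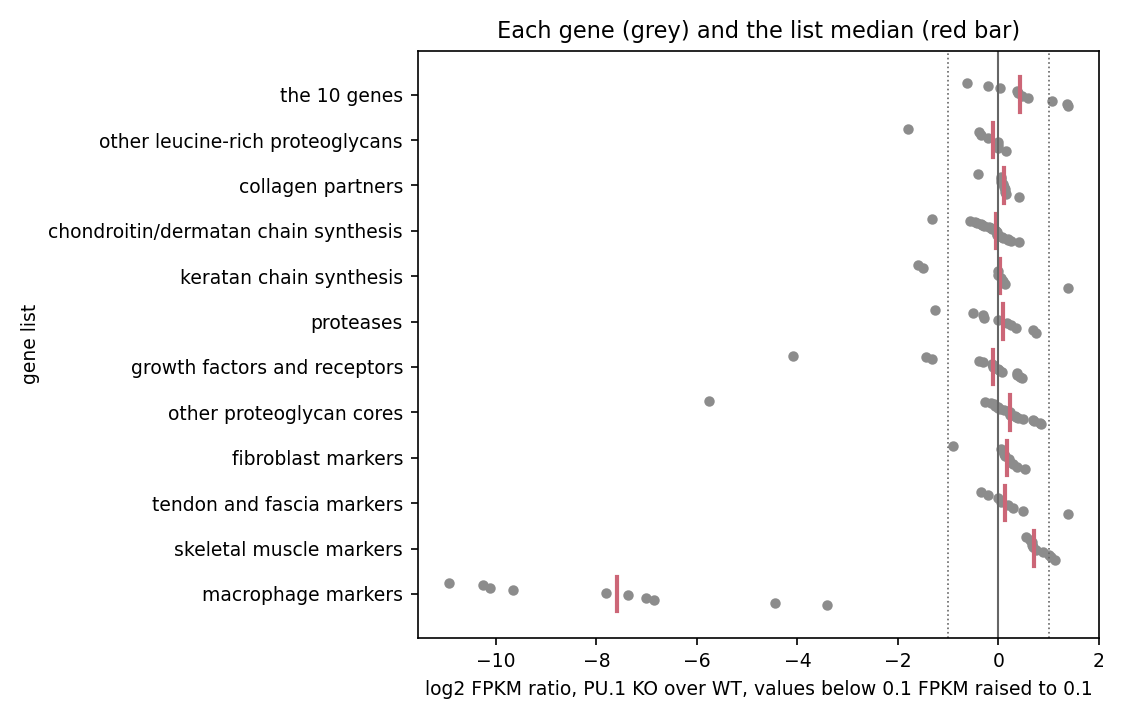
Log2 FPKM ratio of PU.1 KO over WT for every gene (grey points) of 12 lists, with values below 0.1 FPKM raised to 0.1, a red bar at each median and dotted lines at 2-fold. The median of the 10 genes is 0.43, between those of the fibroblast markers (0.17) and the skeletal muscle markers (0.71), and the macrophage markers lie far to the left at -7.59.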

How the data were processed

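The authors made stranded mRNA libraries, read them as single-end reads of 75 bases, mapped them to mouse mm10 and deposited FPKM values from Cuffnorm. The submitters' processing notes list TopHat2 2.1.1, Bowtie2 2.2.8, SAMtools 0.1.18 and Cuffdiff 2.2.1. The sources used here give neither the annotation nor the read filters.

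All values started from the deposited FPKM. Low values were raised to 0.1 FPKM before log2 ratios were taken. Genes with equal read numbers shared a WT over PU.1 KO ratio of 1.15 (459 genes below 2 FPKM), which gives the relative depth. The depth itself came from genes with 1 read in each library. With the longest RefSeq-linked GENCODE M21 transcript less 215 nt, 57 of 110 such genes gave the same depth within 0.2%. Lengths of at least 300 nt were found for 21703 genes (89.1%). Estimated reads of low genes lay within 0.1 of whole numbers for 61.1% of 1560 genes, and intervals inherit the error of the assumed length. Positions are those of RefSeq, and gene clusters and overlaps those of GENCODE, both on GRCm38.

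The members and lists were chosen with earlier results of these data known. Named genes were all members, neighbours in the clusters and, from the lists of related genes, those past 2-fold and some of the most abundant. From the marker lists only some such genes were named. The lists for endothelium, cartilage and bone, smooth muscle and myofibroblasts, neutrophils, mast cells and general genes were left out of the text. Fibin, Thy1, Pdgfra, Mfap5, Col1a1, Col12a1, Col14a1, Dse, Bmp1, Tgfb1 and Tgfb3 were chosen after their values were seen. Lists are described by counts and medians, and no p-values are given. The calling rule and the intervals were tried on simulated data with known read numbers and lengths. Those data hold no error of the assumed length and no spread among animals, so neither was tested. Alternatives covered the floor, pseudocount, filter, scaling, fold threshold and reads in place of FPKM. The software was matplotlib 3.10.9, scipy 1.17.1, numpy 2.4.6 and pandas 2.3.3 under Python 3.11.15. Single-cell and spatial data were not analysed here.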

Additional observations from a re-analysis of the deposited data

How the results depend on the processing

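The number of members at least 2-fold higher was 3. It was 2 with a pseudocount of 0.1 FPKM or relative to the fibroblast markers. Over genes of at least 1 FPKM in 1 or both libraries it was also 2. Ecm2 passed that filter only through PU.1 KO, at 0.595 FPKM in WT and 1.24 in PU.1 KO. The number was 1 with a floor of 1 FPKM or a pseudocount of 1 FPKM, and 0 at a fold threshold of 3. The shares of all genes under these alternatives were not computed. The number at least 2-fold lower was 0. At a threshold of 1.5, 4 members were higher and 1 (Fmod) was lower, and the share of all genes at that threshold was not computed. Rescaling the libraries by FPKM sum, by the median ratio, by upper quartile or by protein coding genes moved all log2 ratios by 0.06 or less, and to the fibroblast markers by -0.17. Of 89 log2 ratios of single members under 9 alternatives, 79 moved by less than their counting error and 0 of those past 2-fold turned their direction. The median log2 ratio of the members, 0.43, was 0.35 with the floor of 1 FPKM. Over genes of at least 1 FPKM in 1 or both libraries it was 0.39. With equal FPKM sums it was 0.48, with equal sums of protein coding genes 0.49 and relative to the fibroblast markers 0.26. Prelp turned from 0.03 to -0.15 relative to the fibroblast markers. Relative to these markers 1 of 5 abundant members, in place of 4, was at least 25% higher. The share of all genes on that scale was not computed. Podn ranged from 1.08 to 1.42 on the log2 scale, Ecm2 from 0.31 to 1.12 and Kera from 0.00, with the floor of 1 FPKM, to 1.44. In estimated reads, which favour long transcripts, Dcn made up 56.6% of the members in WT and 58.0% in PU.1 KO. Depth limits Kera, Ecm2 and Fmod most. No paired analysis was possible because each genotype has 1 library, and leaving out a replicate was not possible for the same reason.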

Other observations

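Other proteoglycan core proteins of skin were compared in the same libraries. Of 21 genes, 0 were at least 2-fold higher and 1 was lower, with a median log2 ratio of 0.23 and 14 genes above 0. The lower one was Srgn, which encodes serglycin, the proteoglycan of leukocyte and mast cell granules, at 368 FPKM in WT against 6.83 in PU.1 KO. Sdc1, the syndecan of keratinocytes, was the next most abundant, at 260 and 235 FPKM. Higher values in PU.1 KO were measured for Prg4, the lubricin gene, at 58.1 and 92.9 FPKM (ratio 1.60, interval 1.53 to 1.67), and for Spock2 at 3.07 and 5.41 FPKM (1.76, interval 1.49 to 2.08). Vcan, the large chondroitin sulfate proteoglycan of provisional matrix, had 37.4 and 35.4 FPKM, and Hspg2, the basement membrane proteoglycan perlecan, had 26.8 and 31.4 FPKM. Prg4, Spock2, Vcan and Hspg2 were named after their values were seen.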
